A study of Mus musculus with 183 samples.

Results

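The noncoding host genes of small nucleolar RNAs (snoRNAs) are genes whose introns carry snoRNAs and whose spliced exons encode no known long protein. The members described here are the 7 host genes Gas5, Snhg1, Snhg3, Snhg5, Snhg6, Snhg8 and Snhg12, chosen by name from the 53380 genes of a count table that followed RNA loss after a block of transcription in mouse embryonic stem cells (mESCs). All 7 were counted in each library and passed the filter on low counts in each comparison, with raw counts between 465 and 17135 per library. When a host RNA is spliced, the snoRNAs are cut from its introns and the joined exons are exported to the cytoplasm. There the exons are read by ribosomes over short frames that stop early, and the RNA is known as a classical substrate of nonsense-mediated decay (NMD), the pathway that removes RNAs on which translation ends upstream of an exon junction. The cytoplasmic exosome, which degrades RNA from its 3′ end with the help of the SKI helicase SKIV2L, and the nuclear exosome also act on such RNAs. AVEN is a protein that was studied here together with SKIV2L.

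The experiment comprised 47 RNA-seq libraries of 2 clones of male mESCs, each a single clone grown on gelatin in serum and LIF. Clone 5F carries Rosa26Cre-ERT2/- and Skiv2lfl/fl. Clone 7E lacks Aven (Aven-/-) and is labelled with Rosa26Cre-ERT2/BirA-V6 and with Skiv2l3xFLAG-Avi/3xFLAG-Avi, and the study's methods add Skiv2lfl/fl. Both clones thus express Cre-ERT2 from the Rosa26 locus, and 0.1 µM 4-hydroxytamoxifen (4OHT) activates it to cut out the part of Skiv2l that encodes the catalytic domain. Libraries were taken at day 0 and day 4 of 4OHT, each after mock treatment (6 h of DMSO, called 0 min) and after 120, 240 and 360 min of actinomycin D, which blocks transcription. Each of the 16 groups had 3 libraries, except clone 5F at day 0 and 120 min with 2. The study's methods call the replicates technical, so p-values measure the spread between these libraries. With 1 clone per genotype, the Aven deletion, the tag and the clone cannot be told apart, nor can the lower level of Skiv2l in clone 7E given below.

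Total gene counts were between 24440935 and 34114250 per library. All 8 stem cell markers examined had at least 1 CPM (counts relative to the library total) in each mock group. Aven had 1004 ± 6.86 normalized read counts (SD, n = 3) in mock-treated clone 5F at day 0 and 66.9 ± 16.5 in clone 7E. Skiv2l was counted over the whole gene, which includes exons that stay after recombination. In clone 5F it had 4163 ± 36.5 normalized counts in the mock libraries of day 0 and 4134 ± 296 in the libraries labelled day 4 (adjusted p = 0.914), so its count does not check that label. In clone 7E it had 969 ± 67.5 and 388 ± 19.1 (adjusted p = 7.78e-13). Before 4OHT, Skiv2l was thus lower in clone 7E than in clone 5F (log2 difference −2.10, edgeR adjusted p = 1.06e-19). In 6 libraries the mitochondrial rRNA mt-Rnr2 had between 32890 and 45765 normalized counts, against 81777 to 541606 in the other 41. They are 1 library each of both clones at day 0 and 240 min, at day 4 and 120 min, and at day 4 and 360 min. In each of them the median member stood 0.17 to 0.37 (log2) above the other libraries of its group, and the half-lives and the changes in decay are also given without these 6.

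The genomic positions below are from the Gencode annotation of GRCm38, and the genes differ in how much of their exonic sequence can be counted without doubt. Gas5 (ENSMUSG00000053332, chromosome 1, 161034422 to 161038539, plus strand) spans 10 annotated snoRNA entries, with overlapping entries for Snord80, and 20 of its 25 transcripts are annotated as retained introns. Snhg1 (ENSMUSG00000108414, chromosome 19, 8723475 to 8726443, plus strand) spans 8 snoRNAs, with 14 of 18 transcripts annotated as retained introns. Snhg12 (ENSMUSG00000086290, chromosome 4, 132308623 to 132311024, plus strand) spans 5 snoRNA entries, with overlapping entries for Snora16a. Snhg5 (ENSMUSG00000097195, chromosome 9, 88521050 to 88522929, minus strand) spans 2, Snord50a and Snord50b. Snhg6 (ENSMUSG00000098234, chromosome 1, 9941959 to 9944118, minus strand) holds Snord87, and Snhg8 (ENSMUSG00000104960, chromosome 3, 123507552 to 123508404, minus strand) holds Snora24. Snhg3 (ENSMUSG00000085241, chromosome 4, 132348014 to 132353686, minus strand) holds Snora73a and Snora73b. The libraries do not keep the strand, and reads over exons of more than 1 gene were not counted. This removes 86.3% of the exonic bases of Snhg3, which overlap the coding gene Rcc1, the antisense RNA Gm17300 and Snora73a, and its values are uncertain. For the other 6 genes the shared part is between 8.32% (Snhg5) and 21.0% (Snhg1).

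Many snoRNA hosts belong to the TOP genes, whose RNAs begin with a C followed by a run of pyrimidines and whose translation follows growth conditions. Of the 7 members, 6 have a start site in the RefSeq table of GRCm38.p6 (7 start sites in all), and Snhg6 is named only. The windows of 30 bases below run 5′ to 3′ along the strand of the gene, from 15 bases before the annotated start. Capitals mark a run of at least 5 C or T that opens with C within 5 bases of the start, searched on the sense strand. They are shown because the members differ in it. Such a run stood at 4 of the 7 start sites, which belong to 4 of the 6 genes, and in 18.3% of all 32851 promoters of the table.
Gas5, second start, chr1:161035151-161035180, plus strand: agccgccatctcagCCTTTCggagctgtgc
Snhg12, chr4:132308663-132308692, plus strand: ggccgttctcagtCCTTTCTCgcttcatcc
Snhg8, chr3:123508322-123508351, minus strand: gcaccgttcagaagtCTCTTTggctgcgat
Snhg3, chr4:132353672-132353701, minus strand: tagtcgaccacgcctgaCTTCCgggcgtta
Snhg5, chr9:88522883-88522912, minus strand: gagctgcggtgaaccgggctcgttctttta
Snhg1, chr19:8723472-8723501, plus strand: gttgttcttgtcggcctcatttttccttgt
In Snhg5 and Snhg1, and at the first start of Gas5, no run met the rule. A start site used in these cells may lie elsewhere than the annotated one.

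Levels between genes were compared per kb of exonic length, taken over the exons of all annotated transcripts, retained introns included. This length equals the whole gene span in Snhg1 (2969 bases), Snhg12 (2402) and Snhg8 (853). It is 3760 of 4118 bases in Gas5 and 1146 of 2160 in Snhg6. The order and the ranks below thus depend on how much intron is annotated as exon. In mock-treated clone 5F at day 0, Gas5 (growth arrest-specific 5, named for its accumulation in arrested cells) had 2614 ± 123 normalized counts per kb (SD, n = 3). Snhg5 followed with 2420 ± 125, and the libraries of these 2 genes overlap (2519 to 2753 for Gas5 and 2292 to 2542 for Snhg5). Snhg3 had 1740 ± 65.1, Snhg1 1524 ± 76.4 and Snhg6 1466 ± 82.6. The libraries of Snhg1 (1440 to 1589) and of Snhg6 (1399 to 1558) overlap, and those of Snhg3 lie above both. Snhg8 had 1078 ± 29.5 and Snhg12 674 ± 24.8, each apart from its neighbours. Counted over the 135 unshared exonic bases alone, Snhg3 would have 12711 per kb, so its place in this order rests on the length used. Averaged over the 12 mock libraries, the members ranked from place 326 (Gas5) to place 2316 (Snhg12) of 34400 genes with a count.

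The first question was how fast the host RNAs are lost once transcription stops. All 7 members fell with time in both clones and on both days, by 0.23 to 0.64 log2 per hour (quasi-likelihood test of edgeR, p adjusted over all genes by Benjamini and Hochberg, at most 1.3e-07). This number alone says little about the members, since 89% of the 17901 genes tested in clone 5F at day 0 fell too, and 89.5% at day 4, 91.3% and 93.3% in clone 7E. The rate is what differs among the members. The median slope of the 7 was −0.41 log2 per hour in clone 5F at day 0, −0.39 at day 4, −0.37 in clone 7E at day 0 and −0.40 at day 4, and the median of all genes tested was −0.22 in each of them.

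Snhg5, the host of the box C/D snoRNAs Snord50a and Snord50b, was lost fastest. In clone 5F at day 0 its mock libraries had 4398, 3965 and 4195 normalized counts. At 120 min the libraries had 892 and 825, at 240 min 463, 645 and 540, and at 360 min 263, 289 and 284. No library of a later time reached one of an earlier time, and 6.66% ± 0.321 of the mock mean (SD, n = 3) was left at 360 min. Its slope was −0.64 ± 0.04 log2 per hour (SE), and 6.44% of all genes fell more steeply. In the other groups the slope was −0.60 at day 4, and −0.61 and −0.56 in clone 7E at day 0 and day 4.

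Gas5, Snhg12, Snhg6 and Snhg1 formed the middle. Gas5 had 10353, 9473 and 9658 normalized counts in the mock libraries of clone 5F at day 0, 2956 and 2688 at 120 min, 1622, 2345 and 1969 at 240 min, and 1434, 1463 and 1617 at 360 min. Most of the loss of Gas5 lay before 120 min, and at 240 min and 360 min the libraries came close to each other. Its slope was −0.45 ± 0.04 log2 per hour, beside −0.44 ± 0.03 for Snhg12, −0.41 ± 0.05 for Snhg6 and −0.41 ± 0.03 for Snhg1. Between 17.3% and 21.2% of all genes fell more steeply than these 4 genes in that group. At 360 min of actinomycin D, 15.3% ± 1.00 of Gas5, 16.2% ± 0.818 of Snhg12, 17.7% ± 1.66 of Snhg6 and 17.8% ± 1.10 of Snhg1 were left.

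Snhg3 and Snhg8 were lost slowest. Snhg8, the host of the box H/ACA snoRNA Snora24, had 904, 906 and 949 normalized counts in the mock libraries of clone 5F at day 0, 553 and 480 at 120 min, 405, 502 and 400 at 240 min, and 326, 355 and 378 at 360 min. The libraries at 120 min and 240 min overlap. At 360 min, 38.4% ± 2.79 of Snhg8 and 31.9% ± 1.31 of Snhg3 were left. The slopes were −0.23 ± 0.02 log2 per hour for Snhg8 and −0.28 ± 0.01 for Snhg3, and 48.5% and 38.3% of all genes fell more steeply. Snhg8 thus stood next to the median gene. At day 4 Snhg3 was the slower of the pair in both clones, with −0.23 in clone 5F and −0.26 in clone 7E, beside −0.26 and −0.30 for Snhg8.

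**Figure D1:**
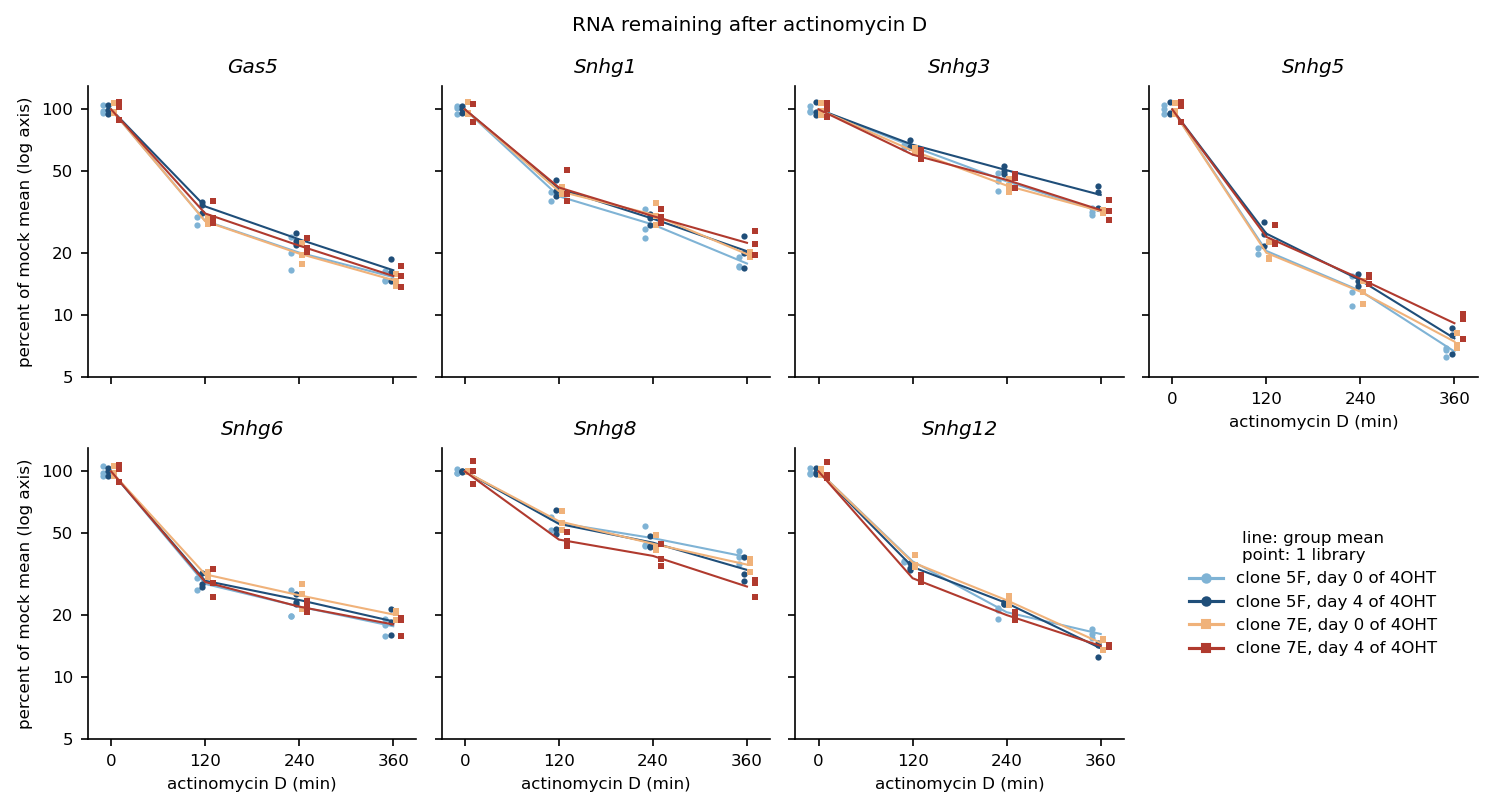
Percent of the mock mean (log axis) against time in actinomycin D (min) for each of the 7 members, with 1 point per library and lines through the means of the 4 clone and day groups. Snhg5 reaches the lowest share (6.66% in clone 5F at day 0), Snhg3 and Snhg8 keep the highest, and the lines of the 4 groups lie close together for each gene.

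Read as a single exponential, as the study computes half-lives, these slopes gave half-lives for Snhg5 of 95.3 ± 8.26 min (SE) in clone 5F at day 0, 101 ± 8.20 at day 4, and 101 ± 10.8 and 109 ± 11.0 in clone 7E at day 0 and day 4. Gas5 had 136 ± 16.7, 144 ± 14.9, 136 ± 16.7 and 140 ± 16.0 min in the same order, and Snhg12 had 136 ± 12.4, 131 ± 9.97, 135 ± 9.91 and 133 ± 13.9 min. These 2 genes cannot be ordered, since their errors overlap in each group. Snhg1 was between 149 and 174 min and Snhg6 between 148 and 165 min over the 4 groups. Snhg3 was between 218 and 263 min, and Snhg8 between 206 and 268 min. The median over all genes with a falling slope was between 277 and 283 min. Without the 6 libraries with little mt-Rnr2, the median half-life of the 7 members was 148 min in clone 5F at day 0 and 143 at day 4, and 161 and 142 min in clone 7E, beside 148, 158, 163 and 154 min with them. Without the mock libraries it was 230.1, 235, 246 and 267 min in the same order, where the median over all genes was 419, 419, 406 and 410 min.

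The fitted loss was steeper before 120 min than after it in most members. Between mock and 120 min Snhg5 fell by 1.14 ± 0.05 log2 per hour in clone 5F at day 0, and between 120 and 360 min by 0.41 ± 0.04. Snhg6 fell by 0.91 ± 0.04 and then by 0.17 ± 0.03, and Gas5 by 0.90 ± 0.04 and then by 0.22 ± 0.03. Snhg12 fell by 0.73 and then by 0.29, Snhg1 by 0.70 and then by 0.27, and Snhg8 by 0.42 and then by 0.14. In each of these 6 genes the 95% confidence intervals of the early and the late slope were apart in all 4 groups. Snhg3 was the exception, with 0.30 ± 0.04 and 0.26 ± 0.02 log2 per hour and intervals that overlap in clone 5F on both days and at day 0 in clone 7E. A steeper early slope was also seen in the median gene, with −0.39 and then −0.13 log2 per hour in clone 5F at day 0. The step between mock and 120 min rests on the spike-in factor of the time point, by which all genes are moved alike, and mock libraries received DMSO in place of actinomycin D. After 120 min Snhg5 was still the fastest in all 4 groups. Snhg6, the second or the third fastest before 120 min, had the least steep slope after it in 3 groups and came next to Snhg8 in clone 5F at day 0.

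**Figure D2:**
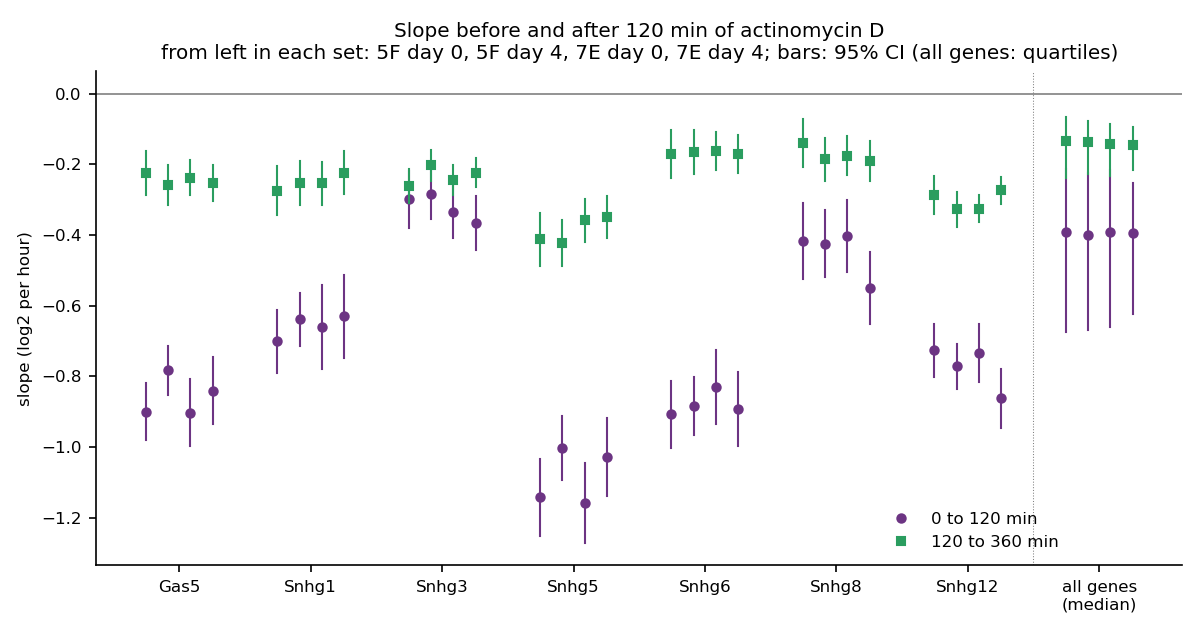
Slope in log2 per hour from mock to 120 min (circles) and from 120 to 360 min (squares) for the 7 members in the 4 clone and day groups, with 95% confidence intervals, and at the right the median and quartiles of all genes. For 6 members the circles lie well below the squares, while those of Snhg3 lie near each other at −0.30 and −0.26 in clone 5F at day 0.

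The next comparison asked whether the decay of the host RNAs slowed between day 0 and day 4 of 4OHT, in each clone. Skiv2l was already lower in clone 7E before 4OHT (969 normalized counts, against 4163 in clone 5F). In clone 5F the Skiv2l count did not check the day 4 label. No member was called for a change of slope between day 0 and day 4 in clone 5F (0 of 7, with 0.201% of 17901 genes called in either direction). None was called in clone 7E either (0 of 7, with 0.988% of 17417 genes called). With so few genes called, 0 of 7 alone says little about the members. The changes were between −0.03 (Snhg8) and 0.05 (Snhg3) log2 per hour in clone 5F, with adjusted p = 1 for each of the 7 in edgeR, and between −0.05 (Snhg8) and 0.05 (Snhg5) in clone 7E, with adjusted p of at least 0.788. The values are day 4 minus day 0, so that a positive value is a slower loss at day 4.

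The intervals show which changes these data could have missed. For Gas5 the 95% confidence interval was −0.09 to 0.14 log2 per hour in clone 5F and −0.11 to 0.14 in clone 7E, against a slope of −0.45 at day 0 in both clones. For Snhg5 it was −0.08 to 0.17 and −0.10 to 0.19, and for Snhg6 −0.12 to 0.16 and −0.17 to 0.11. Snhg3 in clone 5F was the 1 member with an unadjusted p under 0.05 (p = 0.0247 in edgeR, interval 0.01 to 0.09, adjusted p = 1), and in clone 7E its interval was −0.04 to 0.06. With time points as separate levels, which leaves the curve of the loss out of the error, the changes of the 7 were between −0.03 and 0.05 in clone 5F, with intervals from −0.08 to 0.09, and between −0.05 and 0.04 in clone 7E, with intervals from −0.10 to 0.09. Without the 6 libraries with little mt-Rnr2, the changes were −0.05 to 0.03 and −0.06 to 0.02, and the slopes of clone 7E minus those of clone 5F at day 0 were −0.02 to 0.04. None of the 13 alternatives called a member in either clone.

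**Figure D3:**
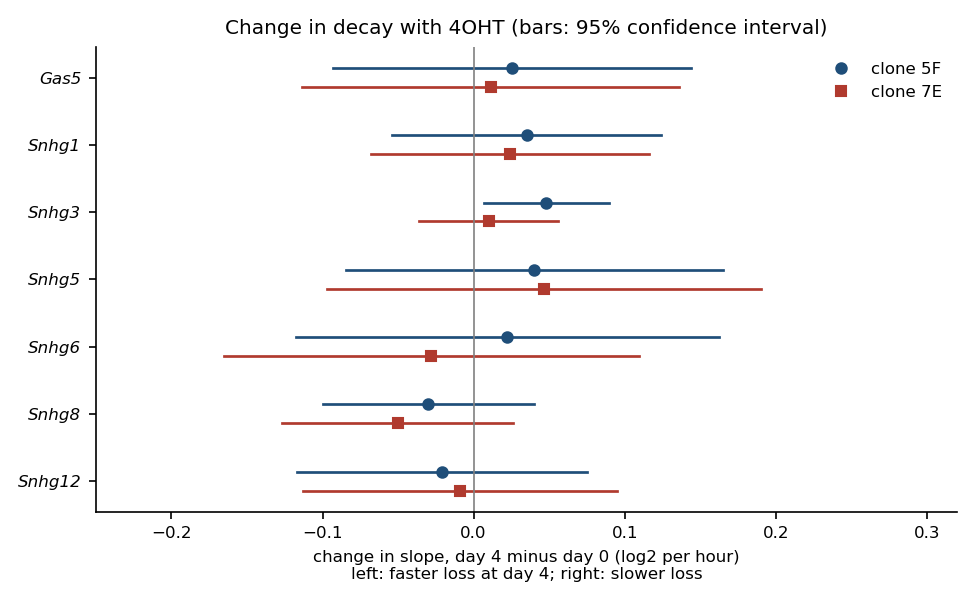
Change in slope, day 4 minus day 0 of 4OHT, in log2 per hour, for the 7 members in clone 5F (circles) and clone 7E (squares), with 95% confidence intervals; values to the right of 0 are a slower loss at day 4. All intervals include 0 except that of Snhg3 in clone 5F (0.01 to 0.09), which did not pass the adjusted threshold.

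The early part of the loss was also looked at alone. At 120 min, 28.7% ± 1.92 of Gas5 was left in clone 5F at day 0 (n = 2) and 33.8% ± 2.08 at day 4 (n = 3), and in clone 7E 28.6% ± 1.29 and 31.2% ± 4.05. For Snhg5 it was 20.5% ± 1.13 and 24.9% ± 3.23 in clone 5F, and 20.1% ± 2.14 and 24.0% ± 3.07 in clone 7E. At 120 min, 1 of the 3 day 4 libraries of each clone is among those with little mt-Rnr2, and its part in these shares was not tested. Over mock and 120 min alone, the change of Snhg5 was 0.14 log2 per hour in clone 5F (adjusted p = 0.609 in edgeR) and 0.13 in clone 7E (adjusted p = 0.436), and that of Gas5 0.12 (adjusted p = 0.566) and 0.06 (adjusted p = 0.694). In clone 7E, Snhg8 had −0.15 (adjusted p = 0.336) and Snhg12 −0.13 (adjusted p = 0.294). None was called.

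The response to 4OHT was also compared between the clones, as was the decay of the untreated cells. The difference between the clones in the change of slope was between −0.05 (Snhg6) and 0.01 (Snhg12) log2 per hour, and no member was called (edgeR's quasi-likelihood test, 0 of 7, 0% of 18623 genes, with 493 genes and 0 members at an unadjusted p under 0.05). DESeq2 called 4 genes and no member. At day 0, the slopes of the 7 differed between clone 7E and clone 5F by −0.02 (Snhg8) to 0.04 (Snhg6) log2 per hour, and none was called (0 of 7, 0.0394% of 17766 genes, 846 genes at an unadjusted p under 0.05). Libraries of both clones with the same number, day and time deviated together, and with these as blocks Snhg1 was called, with a slope less steep by 0.03 ± 0.01 log2 per hour in clone 7E (adjusted p = 0.0493 in edgeR). This fit called 9.88% of all genes. For the difference between the clones in the change of slope, the same blocks called 486 genes and no member.

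Levels in mock-treated cells depend on both synthesis and decay. Relative to the bulk of genes, the member with the largest change with 4OHT was Snhg5, whereas with own spike-ins in clone 7E it was the member with the smallest. In clone 5F its mock libraries had 4398, 3965 and 4195 normalized counts at day 0 and 5974, 6734 and 5858 at day 4. In clone 7E they had 4779, 4253 and 4364 at day 0 and 6841, 6560 and 5450 at day 4. In both clones each day 4 library was above each day 0 library. Snhg5 was 1.48-fold higher at day 4 in clone 5F (95% confidence interval 1.37 to 1.60, log2 change 0.56 ± 0.05, edgeR adjusted p = 1.63e-07) and 1.41-fold in clone 7E (1.28 to 1.54, 0.49 ± 0.06, adjusted p = 1.46e-06), relative to the bulk of genes, and scaled to own spike-ins it was lower in clone 7E (−0.61). The increase in clone 7E minus that in clone 5F was −0.07 (interval −0.27 to 0.13, edgeR adjusted p = 0.716), and 0 of 7 members were called in this comparison, with 11.9% of 17209 genes. The day 4 libraries were also the higher ones at each time of actinomycin D. At 360 min, clone 5F had 263, 289 and 284 counts at day 0 and 495, 400 and 537 at day 4, and clone 7E 321, 310 and 365 at day 0 and 600, 484 and 639 at day 4. Some lineage marker sums differed between the days as well, and others overlapped. Primitive endoderm markers (Gata4, Gata6, Sox17, Sox7 and Dab2) summed to 104 to 109 CPM in mock-treated clone 5F at day 0 and 78.6 to 81.6 at day 4, and to 11.0 to 12.0 and 11.4 to 11.9 in clone 7E. Neural markers (Pax6, Sox1 and Neurog2) summed to 27.5 to 29.4 and 22.4 to 24.2 in clone 5F, and to 63.0 to 68.0 and 41.5 to 45.9 in clone 7E. Fibroblast markers summed to 5.29 to 5.93 and 6.89 to 8.45 in clone 5F, and to 1.94 to 2.45 and 4.91 to 6.03 in clone 7E. Mesoderm markers (Mesp1, Mixl1, Eomes and Kdr) summed to 6.30 to 7.65 and 5.58 to 6.82 in clone 5F. In clone 7E they summed to 5.44 to 6.52 and 6.91 to 7.57. The 8 stem cell markers summed to 3283 to 3320 and 3033 to 3127 in clone 5F, and to 3116 to 3218 and 2623 to 2701 in clone 7E. The part of these markers in the change of Snhg5 was not tested.

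The other members moved little with 4OHT. In clone 5F, 3 of 7 members were called higher (12.8% of all 16349 genes were) and none lower (11.6%). Beside Snhg5 these were Snhg1, with 0.15 ± 0.05 log2 (edgeR adjusted p = 0.0257), and Snhg12, with 0.15 ± 0.05 (adjusted p = 0.0378). In clone 7E, 2 were called higher (20.7% of 16333 genes) and 1 lower (19.4%), namely Snhg5, Snhg1 with 0.17 ± 0.06 (adjusted p = 0.0351), and Snhg6 with −0.17 ± 0.06 (adjusted p = 0.0359). Snhg6 had −0.15 ± 0.06 in clone 5F (adjusted p = 0.0513). Of these small differences none exceeded 1.13-fold, and the calls of Snhg1 and Snhg12 in clone 5F passed in 3 of the 8 alternatives each. In clone 7E the call of Snhg6 passed in 5 of 8, and Snhg1 was lost with DESeq2 and without replicate 1 or 2 and turned with own spike-ins, where it was called lower (−0.92). Gas5 was level, with −0.03 (interval −0.13 to 0.07) in clone 5F and 0.03 (−0.09 to 0.15) in clone 7E.

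These mock levels are relative to the bulk of genes. The ratio of mRNA to ERCC spike-in counts was 143 to 145 in the mock libraries of clone 7E at day 4, against 294 to 341 in the other mock libraries. With the spike-ins of each single library as the scale, the median gene fell by 1.11 (log2) in clone 7E between day 0 and day 4 and by 0.07 in clone 5F. On that scale Snhg5 in clone 7E fell by 0.61, which is 0.50 above the median gene, and in clone 5F it rose by 0.50, which is 0.57 above the median gene. Whether the cells of clone 7E at day 4 held less RNA or were fewer per well cannot be told apart in bulk samples.

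**Figure D4:**
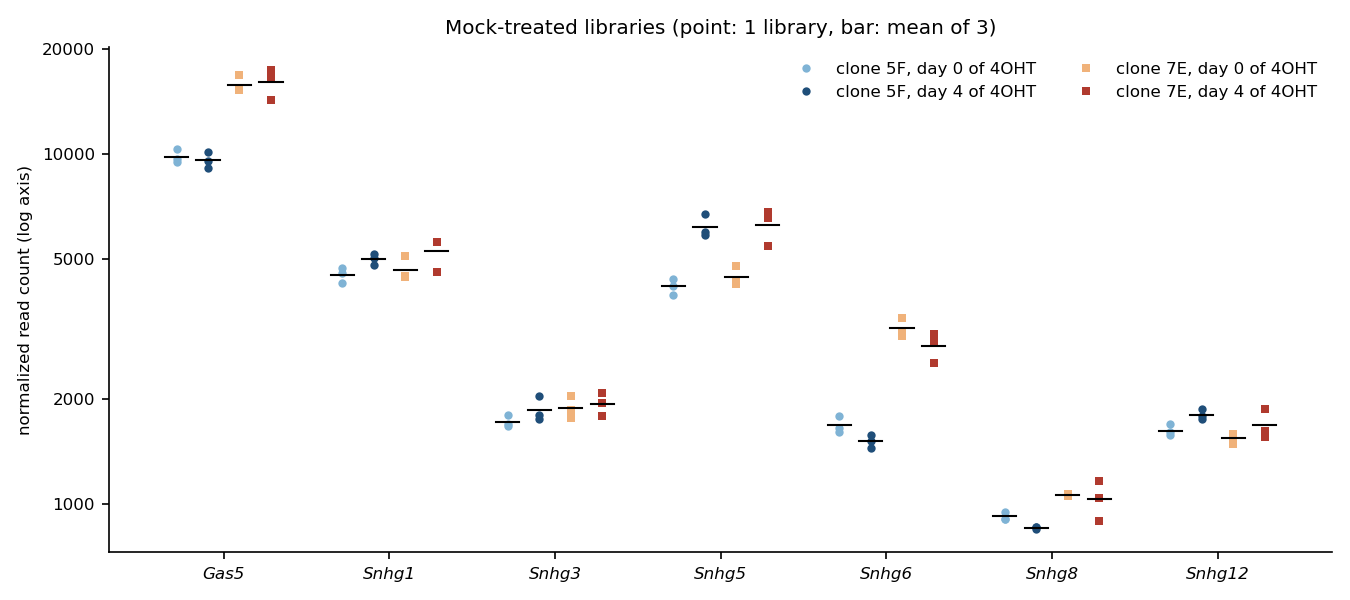
Normalized read counts (log axis) of the 7 members in the mock libraries of clone 5F (circles) and clone 7E (squares) at day 0 (light) and day 4 (dark) of 4OHT, with 1 point per library and a bar at the mean of 3. On this scale, relative to the bulk of genes, Snhg5 is higher at day 4 in both clones (with own spike-ins it is lower in clone 7E, −0.61), and Gas5 and Snhg6 lie higher in clone 7E on both days.

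Between the clones, Gas5 and Snhg6 differed most. The mock libraries of Gas5 at day 0 had 10353, 9473 and 9658 normalized counts in clone 5F and 16897, 15280 and 15234 in clone 7E. Those of Snhg6, the host of Snord87, had 1786, 1604 and 1649 in clone 5F and 3393, 3029 and 3107 in clone 7E. The clones did not overlap for either gene. Gas5 was 1.61-fold higher in clone 7E (interval 1.51 to 1.72, log2 difference 0.69 ± 0.05, edgeR adjusted p = 1.8e-11) and Snhg6 1.89-fold (1.76 to 2.04, 0.92 ± 0.05, adjusted p = 9.12e-13). Relative to the bulk of genes, both genes were also higher without overlap at each later time and on both days. At 360 min of day 0, for instance, Snhg6 had 267, 302 and 322 in clone 5F and 602, 654 and 666 in clone 7E, so that the clones were still apart after 6 h of actinomycin D. Zbtb37, a coding gene on the opposite strand that overlaps Gas5 without shared exonic bases, was higher in clone 7E too (log2 difference 0.80, adjusted p = 1.84e-11). The genes that overlap other members did not go with their hosts. Mcmdc2, which overlaps Snhg6 and had few counts, was not called (0.17, edgeR adjusted p = 0.697). Rcc1 and Gm17300, which overlap Snhg3, were lower in clone 7E (−0.12, adjusted p = 0.0177, and −0.42, adjusted p = 0.0333).

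Snhg8 was called as well, at 1.15-fold (log2 difference 0.21 ± 0.05, adjusted p = 0.00378), so that 3 of 7 members were higher in clone 7E, where 20% of 16299 genes were, and none lower (19.7%). Snhg3 differed by 0.13 ± 0.05 (adjusted p = 0.0546), Snhg5 by 0.09 ± 0.05 (adjusted p = 0.126), Snhg1 by 0.05 ± 0.05 and Snhg12 by −0.07 ± 0.05. With libraries of the same number as blocks, Snhg3 (0.13 ± 0.04, adjusted p = 0.00175) and Snhg5 (0.09 ± 0.03, adjusted p = 0.00119) passed too, in a fit that called 49.7% of all genes. With the spike-ins of each single library as the scale, the median gene was 0.17 lower in clone 7E, Gas5 was 0.52 and Snhg6 0.76 higher, Snhg8 was no longer called (0.05, adjusted p = 0.607), and Snhg12 was called lower (−0.23, adjusted p = 0.00335). On that scale, the change in mock level between the days, clone 7E minus clone 5F, was −0.97 for Gas5 and −1.04 for Snhg6. Both exceed in size the differences of these genes at day 0. Their higher levels in clone 7E on the later day are thus shown only relative to the bulk of genes. The clones also differed in some lineage marker sums, while those of the mesoderm markers overlapped at day 0. The 5 primitive endoderm markers, none at 0, had the sums given above. The sum of the 3 neural markers was higher in clone 7E, with 1 of the 3 at 0 in each clone at day 0. Skiv2l was lower in clone 7E, as given above. The part of the markers and of Skiv2l in these differences was not tested.

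The members hold 29 annotated snoRNA entries, and Snord80 and Snora16a each have entries that overlap each other. Of the 29 entries, 25 had no count in any library, and 27 overlap annotated exons of their host, over which reads were not counted. The table therefore says nothing about most of the snoRNAs themselves. Snora73b lies in an intron of Snhg3 outside all its exons and had 9217 counts on average over the 47 libraries. It fell by 0.06 ± 0.02 log2 per hour in clone 5F at day 0, 0.18 ± 0.02 at day 4, 0.18 ± 0.02 in clone 7E at day 0 and 0.12 ± 0.02 at day 4 (edgeR adjusted p at most 0.0181). At 360 min, 74.8% of Snora73b was left in clone 5F at day 0, beside 31.9% of its host Snhg3. The shares were 48.9% and 38.4% at day 4, and in clone 7E 45.7% and 32.0% at day 0 and 60.9% and 32.4% at day 4. Snord87 in Snhg6 had 51.1 counts on average and fell by 0.54 to 0.65 log2 per hour. Its mock libraries of day 0 had 90.9 to 101 normalized counts in clone 5F and 150 to 166 in clone 7E, and it was higher in clone 7E, as its host was (log2 difference 0.74, edgeR adjusted p = 3.03e-05). Reads over Snord87 from unspliced Snhg6 cannot be told apart from those of the snoRNA.

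The same was computed for other noncoding hosts. Of 14 listed genes 12 were found, Snhg16 under its older name 1810032O08Rik, and Snhg4 and Snhg7 were not matched. All 12 fell with time in 3 of the groups and 11 in clone 5F at day 4, where Snhg18 had −0.04 ± 0.04 log2 per hour (edgeR adjusted p = 0.301). Their median slope was between −0.39 and −0.36 in the 4 groups, beside −0.22 for all genes, of which 89% to 93.3% fell. None was called for a change of decay with 4OHT in either clone. In mock-treated cells, where 12.8% of all genes were called higher in clone 5F and 20.7% in clone 7E, Snhg15, Snhg16 and Snhg17 were higher at day 4 in both clones, by 0.34, 0.35 and 0.34 in clone 5F and by 0.26, 0.23 and 0.37 in clone 7E. Zfas1 was higher by 0.16 in clone 7E, where Snhg14 fell by 0.28 and Snhg11 fell by 0.29, beside 19.4% of all genes called lower. The list's median was 0.01 in clone 5F and −0.04 in clone 7E, against −0.005 and −0.008 for all genes, and with own spike-ins all 12 were called lower in clone 7E with the bulk of genes. Between the clones at day 0, Snhg11, Snhg15, Snhg16 and Snhg20 were higher in clone 7E (0.36, 0.29, 0.16 and 0.27) and Snhg14 and Epb41l4aos lower (−0.38 and −0.28). Of all genes, 20% were called higher and 19.7% lower in that comparison. With own spike-ins 0 of the 12 were called higher and 2 lower.

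Coding hosts, whose introns carry snoRNAs too and which mostly encode ribosomal proteins and translation factors, had less steep slopes than the members by their medians. All 21 fell in each group, with a median slope of −0.16 to −0.19 log2 per hour, as did 89% to 93.3% of all genes, and none was called for a change of decay with 4OHT. At day 4, 6 of 21 were called higher and none lower in mock-treated clone 5F (12.8% and 11.6% of all genes), among them Nop56, a core protein of box C/D snoRNA particles (0.65), Tpt1 (0.61) and Eef2, a translation elongation factor (0.27). In clone 7E 5 were higher and 1 lower (Hspa8, −0.27), beside 20.7% and 19.4% of all genes, and with own spike-ins all 21 were called lower there. Between the clones at day 0, 7 were higher in clone 7E and 2 lower (20% and 19.7% of all genes), which became 0 and 8 with own spike-ins.

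The factors of NMD and of the exon junction complex also fell in all groups (14 of 14, median slope −0.21 to −0.22 log2 per hour, beside 89% to 93.3% of all genes that fell), and none was called for a change of decay. In mock-treated clone 5F, 6 of 14 were called higher at day 4 (12.8% of all genes), among them the helicase gene Upf1 (0.36), Smg5 (0.18), Smg6 (0.32), Smg9 (0.31) and Upf3a (0.16). Magoh was lower (−0.15), as were 11.6% of all genes. In clone 7E 6 were called higher (20.7% of all genes), among them Upf1 (0.35), Smg5 (0.15), Smg6 (0.26), Smg9 (0.33) and Upf3a (0.15). Upf2 and Upf3b were lower there (−0.20 and −0.22), as were 19.4% of all genes. The median of the 14 was 0.08 in clone 5F and −0.005 in clone 7E, where own spike-ins made all 14 lower with the bulk of genes. Between the clones at day 0, Upf3a (0.90), Upf1 (0.61), Smg6 (0.18) and Casc3 (0.16) were called higher in clone 7E, and 1 of the 14 lower. Of all genes, 20% were called higher and 19.7% lower in that comparison. With own spike-ins 2 of the 14 were called higher and 6 lower.

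Coding RNAs known as NMD substrates had steeper median slopes than the host RNAs, and larger changes in level. The 6 genes Atf4, Atf3, Ddit3, Gadd45a, Gadd45b and Ifrd1, which encode stress and growth regulators, fell with a median slope of −0.61 and −0.64 log2 per hour in clone 5F at day 0 and day 4 and −0.50 and −0.52 in clone 7E. None was called for a change of decay with 4OHT. In clone 7E the difference in slope of Ifrd1 was 0.18 ± 0.06 log2 per hour (unadjusted p = 0.00403, adjusted p = 0.175 in edgeR) and that of Atf3 −0.27 ± 0.08 (0.00348 and 0.16), beside 0.08 ± 0.05 and −0.14 ± 0.06 in clone 5F (adjusted p = 1 for both). In mock-treated clone 5F 5 of 6 were called higher at day 4 (12.8% of all genes, median 0.87), and Gadd45a had 0.09 (adjusted p = 0.194). In clone 7E all 6 were called higher (20.7% of all genes, median 1.28), among them Atf4 by 1.35 and Ddit3 by 2.20. With own spike-ins 3 were called higher and 1 lower in clone 7E, and all 6 stayed above the median gene. The rise was larger in clone 7E for 5 of the 6, by the test of the difference in edgeR, which called 11.9% of 17209 genes in either direction. Under own spike-ins this test called 1 of the 6 higher and 4 lower. At day 0, 2 were higher and 2 lower in clone 7E (20% and 19.7% of all genes), and 1 and 3 with own spike-ins.

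Among the genes whose course over the 16 groups was most like the mean course of the 7 members were Epc1, Hinfp, Gcnt2 and Mtf1. Pearson's r over the 16 group means of log2 normalized counts was 0.996 for each of these 4, among 9881 genes with a mean of at least 100 normalized counts. All 4 are protein-coding, and their slopes in clone 5F at day 0 lay between −0.76 (Epc1) and −0.40 (Hinfp) log2 per hour. The members themselves had r between 0.92 (Snhg6) and 0.99 (Snhg1) with their own mean. The groups share the spike-in factors of their time points, by which all genes are moved alike.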

How the data were processed

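RNA was measured by single-end, unstranded RNA-seq after rRNA depletion, with ERCC spike-ins added in the lysis buffer. The authors aligned reads to mm10 with STAR and deposited raw read counts per gene from uniquely aligned reads. Deposited tables of half-lives and of differential expression hold the study's own results and were not used. All 47 libraries were grouped by clone, day and time from their labels, and no pair of replicate libraries agreed within sampling noise.

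Counts were scaled by size factors within each time point (DESeq2 1.42.0) and by 1 spike-in factor per time point (1, 0.657, 0.5382 and 0.4407, from 34 ERCC sequences with a mean count over 50), which gives the normalized read counts. Slopes and mock levels were tested on the raw counts with edgeR 4.0.16 (quasi-likelihood, filterByExpr, Benjamini-Hochberg adjustment over all genes kept, threshold 0.05, two-sided) with these factors as offsets. Decay fits held time, day or clone, and their product. Half-lives came from ln(normalized count + 1) against time. The fits, tested on simulated data with 200 changed genes each, recovered 66.5% of changes of 0.25 log2 per hour for the difference between clones in decay, 94% for decay in clone 5F, and 99.5% of changes of 1 log2 for mock levels in clone 5F. The simulated libraries were independent, with the same fixed dispersion for all genes, and the changed genes were well counted. A change of 0.25 log2 per hour exceeds the whole slope of Snhg8 in clone 5F at day 0 (−0.23). Recovery of smaller changes was not tested.

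Whether replicate numbers pair libraries was checked by correlating their deviations from the group mean. Across clones, all 11 same-number pairs at day 0 and all 12 at day 4 had r over 0.1, so that the fit with blocks is given beside results it changes. Between days, 0 of 3 mock pairs did in either clone, and over all times 7 of 11 pairs in clone 5F and 6 of 12 in clone 7E, which falls short of all pairs.

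The named genes are the members, other noncoding hosts past the threshold, Skiv2l and Aven, snoRNA genes inside members, and the 5 genes most like the members, of which 1 is not reported here, as is 1 gene of the NMD factor list. Members and lists were chosen with earlier results of these data known. Zbtb37, the other genes that overlap members, mt-Rnr2 and the genes named from the coding, NMD factor and substrate lists were named after their values were seen. Alternatives were spike-in scaling per library, TMM, DESeq2, no filter on low counts, replicate blocks, subsets of time points and omission of each replicate. Those with time points as levels, blocks within day and time, and omission of 6 libraries were chosen after seeing the data.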

Additional observations from a re-analysis of the deposited data

How the results depend on the processing

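The fall of all 7 members in all 4 clone and day groups, and the absence of a called change in decay with 4OHT, held under every alternative run. With blocks within day and time point, 1 member (Snhg1) was called in the decay of clone 7E against clone 5F at day 0. Without mock libraries the median half-life of the 7 was 230.1 min in clone 5F at day 0 and 235 at day 4, and 246 and 267 min in clone 7E, since the early loss is then left out (all genes 406 to 419 min).

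For mock levels at day 4 in clone 5F, 1 member was called higher and 1 lower with own spike-ins, 1 lower with TMM, and 1 higher with a replicate block, and without single replicates 1 to 3 were higher and 0 to 1 lower. In clone 7E, DESeq2 called 1 higher and 0 lower, and without single replicates 1 to 2 were higher and 0 to 1 lower. Own spike-ins called 0 higher and 7 lower there, with Gas5 at −1.07, Snhg1 −0.92, Snhg3 −1.06, Snhg5 −0.61 and Snhg12 −0.98, beside −1.11 for the median gene. The same scaling called 7 lower in the difference between clones (Gas5 −0.97, Snhg1 −1.01, Snhg8 −0.97, median gene −1.03). Between clones at day 0 it called 1 lower, and the replicate block called 5 higher; Snhg8 was lost without replicate 1 (adjusted p = 0.0512 in edgeR). Between days, same-number pairs over r = 0.1 were 0 of 3 in mock libraries of each clone, and 7 of 11 in clone 5F and 6 of 12 in clone 7E over all times, so a pairing of the days by number is not established. A block on the number called no member in the fits of decay at day 4 against day 0. The cause of these changes was not tested.

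Over all genes, calls for decay in clone 5F ranged from 2 to 136 (36 reported) and in clone 7E from 30 to 1136 (172), for the clone difference from 0 to 486 (0) and for day 0 from 0 to 1756 (7). Calls on mock levels ranged from 1862 to 4399 (3998), 4320 to 14976 (6551), 753 to 14373 (2055) and 4694 to 8108 (6477), and for the decline of clone 5F at day 0 the lowest was 10200 (15952).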
